A study of Mus musculus with 2 samples.

Results

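The genes described here encode the secreted WNT and BMP signals of the gut stem cell niche, their Frizzled receptors and their secreted inhibitors. They were chosen by symbol: Wnt genes, Rspo1 to Rspo4, the Sfrp and Dkk families, Frizzled genes, Bmp genes, Grem genes, Chrd, Nog, Fst, Wif1 and Frzb. Of 27874 gene symbols in the deposited table, 56 matched: 18 WNT ligands, 4 R-spondins, 8 secreted WNT inhibitors, 10 Frizzled receptors, 9 BMP ligands, 5 BMP antagonists and 2 genes with BMP names that encode no BMP ligand. That pair is Bmp1, a procollagen protease, and Bmp2k, a kinase named for its induction by BMP2.

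The RNA was extracted from colon of C57BL/6J mice, from lamina propria, which is the connective tissue beneath the gut epithelium. There were 2 groups with 1 library each, K14/hyal1 and Control. K14/hyal1 is named after the keratin 14 promoter, a driver of basal cells in skin, and Hyal1, an enzyme that cleaves hyaluronan. The genotype label of the Control group gives only that word. In the authors' comparison both group names carry a second term, Control, whose meaning was not taken up here. The sources used here give no age, sex or number of animals per library. By its title, the study is about hyaluronan and fibroblasts as carriers of inflammatory signals from one epithelium to another, and the colon libraries compare a tissue away from the skin. With 1 library per group, every difference below is between 2 libraries and has no replicate check, no standard error and no p-value.

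In the gut, WNT ligands bind Frizzled receptors and keep cells at the crypt base dividing, and R-spondins raise the response to them. BMP ligands are strongest towards the gut lumen and favour differentiation, while antagonists such as GREM1, made by cells around the crypt base, hold BMP signals off the stem cells. Much of this supply comes from fibroblasts, subepithelial telocytes and smooth muscle, and part from the epithelium itself.

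Values are CPM, that is, reads scaled to a library total of 1e+06. Low values were multiples of 1 read, which implied library totals of 29.0 times 1e+06 reads for K14/hyal1 and 61.1 times 1e+06 for Control. Of these, the listed genes held an estimated 13.8 and 25.4 times 1e+06 reads in that order. Their levels summed to 475975 CPM in K14/hyal1 and 416434 CPM in Control, so each total includes reads outside the listed genes. The part of these unequal sums in the ratios between libraries was not tested. By the library totals, 3 reads, the floor used here, were worth 0.103 CPM in K14/hyal1 and 0.0491 CPM in Control. Exact 95% intervals stand in brackets and cover counting error alone. The Hyal1 gene was at 3.77 CPM in K14/hyal1 and 3.36 CPM in Control, a ratio of 1.12 (0.879 to 1.42), and Krt14 was at 0.517 and 0.507 CPM in the same order; whether these values would register a transgene was not analysed here. Epithelial markers were abundant in both libraries, with the 8 listed genes summing to 2988 CPM in K14/hyal1 and 2845 CPM in Control, so the material was not connective tissue alone. Markers of a salivary-type gland, Dcpp1, Dcpp2, Dcpp3 and Muc19, were each under 3 reads in K14/hyal1 and summed to 1399 CPM in Control, and their part in the results was not tested. In such bulk samples, fewer cells of a type and less RNA per cell cannot be told apart.

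The BMP ligands Bmp4 and Bmp5 stood highest among the differences of the well-detected members. Of the 56 members, 24 had a mean of at least 2.31 CPM, the expression filter, and 32 lay below it. On the log2(CPM + 1) scale, which understates differences of low genes, 1 of the 24, Bmp4, was at least 2-fold higher in K14/hyal1 and 0 were at least 2-fold lower. Of all 13563 genes past the filter, the same criterion took in 3.75% on the higher side and 1.54% on the lower side, so 1 member of 24 is near the background. At 1.5-fold, 7 members were higher (Bmp4, Bmp5, Sfrp1, Grem1, Dkk3, Bmp2k and Fzd1) and 0 were lower, beside 17.7% higher and 4.89% lower over all genes. The median log2 ratio was 0.33 over the 24 members and 0.21 over all genes. Of the 24 members, 17 lay above that all-gene median and 7 below it. The median plain ratio of all genes was 1.18: the counting interval lay above it for 10 of the 24 members, included it for 10 and lay below it for 4. The same counts were not made over all genes, so whether the members differ from all genes by this rule was not tested.

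**Figure D1:**
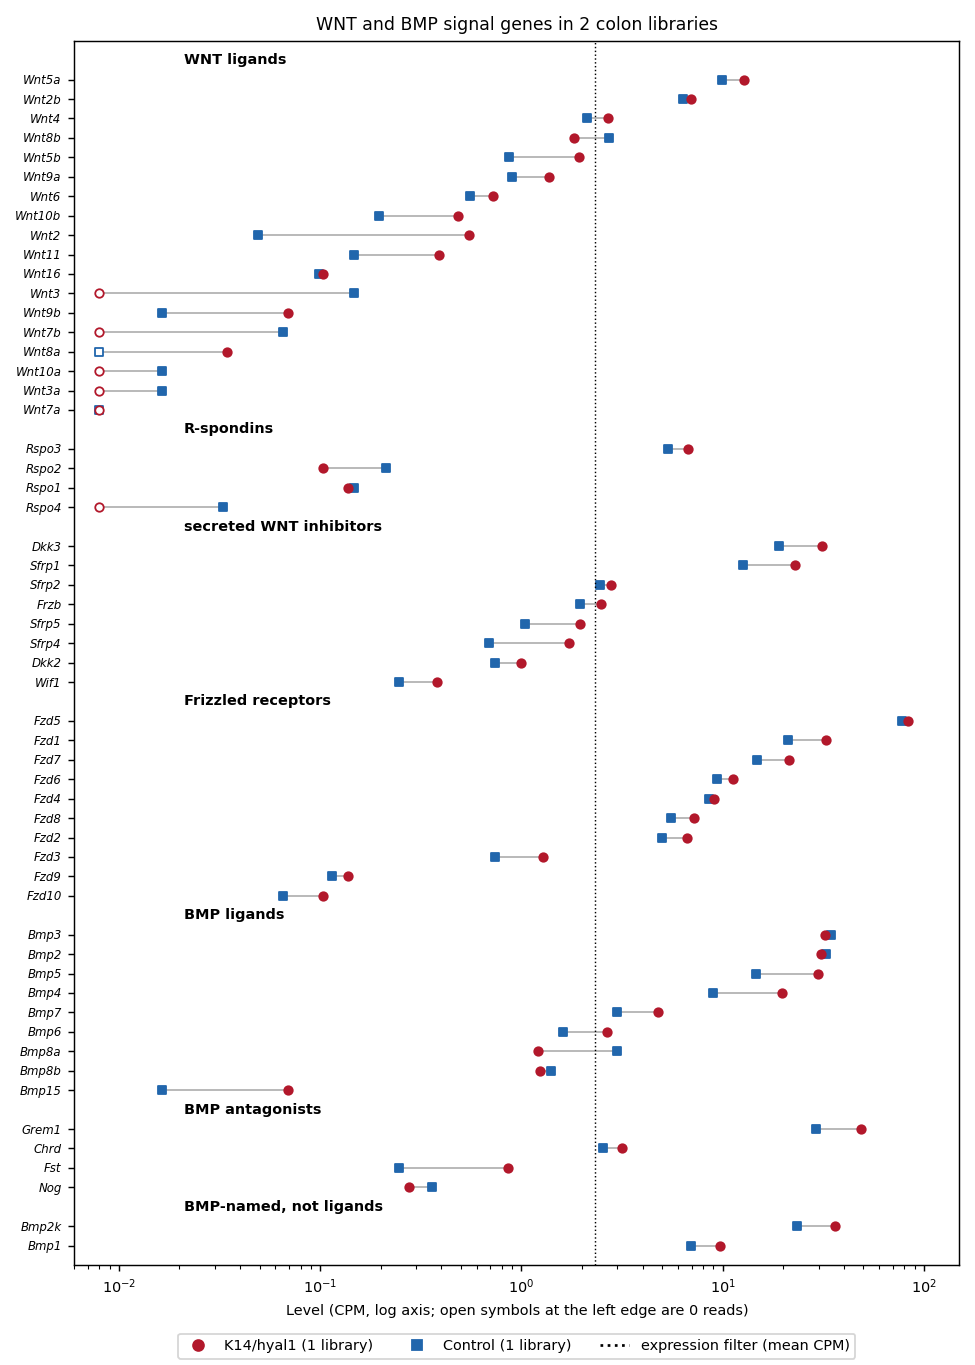
Level of the named members in the K14/hyal1 library (red circles) and the Control library (blue squares), in CPM on a log axis, grouped by role; each point is 1 library and the dotted line is the expression filter at a mean of 2.31 CPM. Wnt5a, Dkk3, Fzd5, Bmp3 and Grem1 had the highest mean of their roles, and the longest lines among members past the filter are those of Bmp4 and Bmp5.

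The upstream windows of Bmp4, Bmp5 and Grem1 are shown because these are the BMP ligands and the antagonist past the filter furthest above Control. Each is the 250 bases before the annotated gene start from RefSeq (GRCm38.p6, the mm10 assembly), 5′ to 3′ on the gene's strand, and capitals mark a motif match.
Bmp4, chr14:46390670-46390919, minus strand: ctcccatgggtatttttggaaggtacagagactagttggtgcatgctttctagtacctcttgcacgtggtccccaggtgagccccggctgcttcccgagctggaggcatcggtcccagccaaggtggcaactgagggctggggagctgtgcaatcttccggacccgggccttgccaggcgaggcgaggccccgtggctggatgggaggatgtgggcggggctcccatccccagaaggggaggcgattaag
Bmp5, chr9:75775115-75775364, plus strand: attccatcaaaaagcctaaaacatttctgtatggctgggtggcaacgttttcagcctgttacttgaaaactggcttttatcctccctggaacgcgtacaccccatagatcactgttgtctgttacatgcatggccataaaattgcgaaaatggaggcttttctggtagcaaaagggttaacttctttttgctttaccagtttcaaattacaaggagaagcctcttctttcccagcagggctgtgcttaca
Grem1, chr2:113758649-113758898, minus strand: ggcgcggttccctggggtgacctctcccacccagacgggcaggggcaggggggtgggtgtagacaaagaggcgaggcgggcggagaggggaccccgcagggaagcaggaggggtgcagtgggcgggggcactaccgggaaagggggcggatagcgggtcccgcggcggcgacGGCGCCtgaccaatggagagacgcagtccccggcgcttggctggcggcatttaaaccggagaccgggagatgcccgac
Motifs were searched on both strands: CTTTGA for TCF/LEF factors, which act in the WNT pathway, GACCACCCA for GLI factors of the Hedgehog pathway, and GGCGCC, a GC-rich SMAD element of the BMP pathway. The Bmp4 and Bmp5 windows held none of these letters, and the Grem1 window held 1 GGCGCC. Over 32851 windows of the same length, 13.8% held the TCF/LEF letters, 0.225% the GLI letters and 9.59% the SMAD letters. The table had windows for 12 of the 24 members past the filter. Of these, 1 (Fzd1) held the TCF/LEF letters, 0 held the GLI letters and 6 held the SMAD letters: Bmp2k, Chrd, Fzd4, Grem1, Wnt2b and Wnt4. Of all 36 members with windows, 4 held the TCF/LEF letters, 0 the GLI letters and 13 the SMAD letters. GGCGCC holds only G and C, and the 32851 windows were not matched for GC content. The part of GC content in these counts was not tested. GC content differed widely, at 63.2% for the Bmp4 window, 42.8% for Bmp5 and 72.0% for Grem1. A match is a description of letters and not evidence of binding.

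Among the BMP ligands, Bmp4 and Bmp5 were about 2-fold higher in K14/hyal1, while Bmp2 and Bmp3 were at similar levels in both libraries. Bmp4, a mesenchymal BMP of the gut on chromosome 14 (46383520-46390669, mm10), had 19.7 CPM in K14/hyal1 (18.2 to 21.4, 573 estimated reads) and 8.94 CPM in Control (8.20 to 9.72, 546 estimated reads). That is a ratio of 2.21 (1.96 to 2.49) and a log2 ratio of 1.06, or 0.85 with libraries scaled to the median gene, which is short of 2-fold. Gm15217, on the opposite strand, shares 3.96% of the exonic bases of Bmp4. Bmp5, on chromosome 9 (75775364-75900310), had 29.9 CPM in K14/hyal1 (27.9 to 31.9) and 14.6 CPM in Control (13.6 to 15.6), a ratio of 2.05 (1.87 to 2.25). Its log2 ratio of 0.99 fell just short of the 2-fold criterion because of the added 1 CPM, and 5.23% of all genes past the filter had a plain ratio at least as high. Both intervals lay above the median plain ratio of all genes, 1.18.

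Bmp2, which gut epithelium and mesenchyme both make, had 30.7 CPM in K14/hyal1 and 32.5 CPM in Control, a ratio of 0.945 (0.872 to 1.02). Bmp3, a family member that acts as an inhibitor of other BMP signals, had 32.4 CPM in K14/hyal1 and 34.4 CPM in Control, a ratio of 0.941 (0.870 to 1.02). Both intervals included 1 and lay below the median ratio of all genes. Bmp7 was lower in level, at 4.79 CPM in K14/hyal1 and 2.99 CPM in Control, a ratio of 1.60 (1.27 to 2.00).

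The other BMP ligands were below the filter. Bmp6 had 2.65 CPM in K14/hyal1 and 1.60 CPM in Control, a ratio of 1.65 (1.21 to 2.25), and shares 5.74% of its exonic bases with Txndc5 on the opposite strand, a gene at 71.9 and 52.8 CPM in the same order. Bmp8a was lower in K14/hyal1, with 1.21 CPM in K14/hyal1 (35 estimated reads) and 2.99 CPM in Control (183 estimated reads), a ratio of 0.403 (0.272 to 0.581). Its near neighbour and close copy Bmp8b had 1.24 CPM in K14/hyal1 and 1.40 CPM in Control, a ratio of 0.884 (0.586 to 1.33). Reads of such a related pair can be assigned to either gene, so the division between them is uncertain. Bmp15, known from the egg cell, had 2 estimated reads in K14/hyal1 and 1 in Control. Of the pair that encode no ligand, Bmp1 had 9.65 CPM in K14/hyal1 and 6.92 CPM in Control, a ratio of 1.39 (1.19 to 1.62), and Bmp2k had 36.2 and 23.3 CPM in the same order, a ratio of 1.55 (1.43 to 1.68). Without these 2 genes the median log2 ratio of members past the filter was 0.30.

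The Bmp4 difference sat mainly in 1 of its 3 transcript rows, which the file does not name. That row had 13.0 CPM in K14/hyal1 and 4.21 CPM in Control, a ratio of 3.10, while the second had 6.37 and 4.44 CPM in the same order, a ratio of 1.43. The first row therefore carried 66.1% of the Bmp4 level in K14/hyal1 and 47.1% in Control. The main row of Bmp5 carried 98.5% of its level in K14/hyal1 and 98.4% in Control. The division of reads among rows is the authors' estimate. Bmp5 shares 46.7% of its exonic bases with the antisense gene Gm26903, which had 1.33 CPM in K14/hyal1 and 1.30 CPM in Control. The library kit keeps strand, but the sources used here do not say whether counting used it.

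Among the antagonists that bind BMP ligands outside the cell, Grem1 was higher in K14/hyal1 by more than counting error. Grem1, made by muscle and fibroblasts at the crypt base, had 48.9 CPM in K14/hyal1 (46.4 to 51.5) and 29.1 CPM in Control (27.8 to 30.5), a ratio of 1.68 (1.56 to 1.80). Its interval lay above the median ratio of all genes, 1.18.

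Chordin (Chrd), another extracellular BMP antagonist, had 3.17 CPM in K14/hyal1 and 2.55 CPM in Control, a ratio of 1.25 (0.949 to 1.62). Follistatin (Fst), which binds activins and some BMPs, was below the filter, at 0.861 CPM in K14/hyal1 (25 estimated reads) and 0.245 CPM in Control (15 estimated reads), a ratio of 3.51 (1.78 to 7.16). Noggin (Nog) had 0.276 CPM in K14/hyal1 and 0.360 CPM in Control, from 8 and 22 estimated reads in that order. The noggin difference was not detectable at this depth, with a ratio interval of 0.295 to 1.79.

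Ratios of 2 genes within a library do not depend on how libraries are scaled. The pairs given here were chosen after the values were seen. Bmp4 over Bmp2 was 0.644 in K14/hyal1 and 0.275 in Control, a 2.34-fold difference (2.02 to 2.70). Bmp5 over Bmp2 was 0.974 in K14/hyal1 and 0.449 in Control, a 2.17-fold difference (1.92 to 2.46). The balance of Bmp4 and Bmp5 with Bmp2 therefore differed between the libraries beyond counting error. These pairs set the ligands with the highest ratios past the filter against Bmp2, whose ratio was below 1. Pairs with Grem1 differed less: the difference was 1.32-fold (1.15 to 1.51) for Bmp4 over Grem1 and 1.22-fold (1.09 to 1.38) for Bmp5 over Grem1. Bmp4 over Bmp5 was 0.661 in K14/hyal1 and 0.614 in Control, with an interval for the difference of 0.925 to 1.26, which includes 1.

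**Figure D2:**
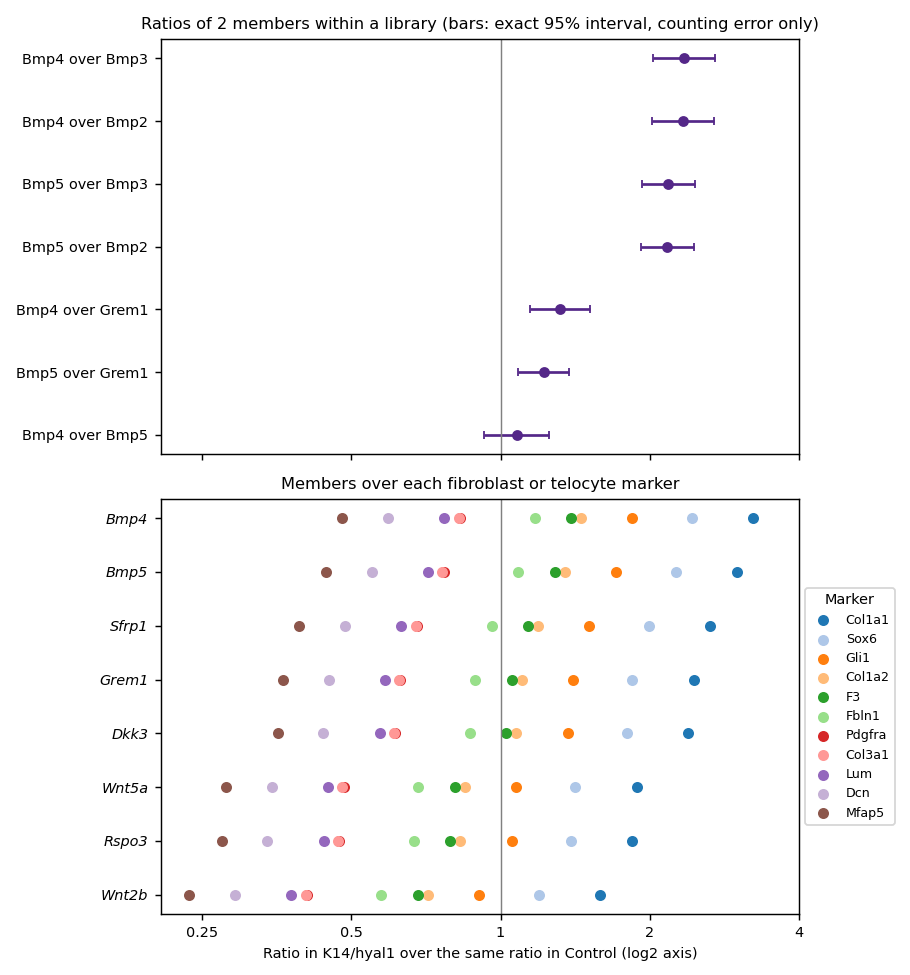
The ratio of 2 genes' levels within the K14/hyal1 library divided by the same ratio within the Control library, on a log2 axis, with 1 library per group; bars in the upper panel are exact 95% intervals for counting error only. Pairs of Bmp4 or Bmp5 with Bmp2 or Bmp3 sit above 2, and each of the 8 members set over 11 fibroblast and telocyte markers (lower panel, 1 point per marker) lies on both sides of 1 depending on the marker.

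Few WNT ligands were well detected, and those that were had ratios close to the shift of all genes. Wnt5a, a noncanonical ligand made by stromal cells, had 12.7 CPM in K14/hyal1 (11.5 to 14.1) and 9.87 CPM in Control (9.10 to 10.7), a ratio of 1.29 (1.13 to 1.47). Wnt2b, a canonical ligand that supports intestinal stem cells, had 6.93 CPM in K14/hyal1 and 6.38 CPM in Control, a ratio of 1.09 (0.911 to 1.29) that fell below 1 when libraries were scaled to the median gene. Wnt4 had 2.69 CPM in K14/hyal1 and 2.11 CPM in Control, a ratio of 1.27 (0.949 to 1.70). Each of these 3 intervals included the median ratio of all genes, 1.18. Rspo3, the R-spondin detected above the filter here, had 6.75 CPM in K14/hyal1 and 5.35 CPM in Control, a ratio of 1.26 (1.05 to 1.51), which also includes 1.18.

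Below the filter, Wnt2 had the largest ratio among WNT ligands with reads in both libraries. It had 0.551 CPM in K14/hyal1 (16 estimated reads) and 0.0491 CPM in Control (3 estimated reads), a ratio of 11.2 with a wide interval of 3.21 to 60.1. Wnt5b, on the same noncanonical branch as Wnt5a, had 1.93 CPM in K14/hyal1 and 0.867 CPM in Control, a ratio of 2.22 (1.501 to 3.30). Wnt10b had 0.482 CPM in K14/hyal1 and 0.196 CPM in Control, a ratio of 2.46 (1.05 to 5.81). These are low genes, and on the log2(CPM + 1) scale Wnt2, Wnt5b and Wnt10b were at 0.56, 0.65 and 0.31.

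Wnt8b was lower in K14/hyal1, at 1.83 CPM, against 2.73 CPM in Control, a ratio of 0.668 (0.481 to 0.915). Wnt9a had a ratio of 1.53 (0.993 to 2.34), Wnt6 of 1.30 (0.717 to 2.31), Wnt11 of 2.64 (0.9695 to 7.03) and Wnt16 of 1.05 (0.170 to 4.93). The last 4 intervals include 1.

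Wnt3, which Paneth cells of the small intestine supply to stem cells, had 0 reads in K14/hyal1 and 9 estimated reads in Control (0.147 CPM). A level at the floor of 3 reads in the K14/hyal1 library would be 1.42-fold lower than the Control level, which is not a bound on the difference. The exact interval of the Wnt3 ratio reaches 1.07, so this difference is at the limit of the depth. Wnt3a, Wnt7a, Wnt7b, Wnt8a, Wnt9b and Wnt10a had from 0 to 2 estimated reads in K14/hyal1 and from 0 to 4 in Control, too few for a comparison. Among R-spondins, Rspo1 had 4 and 9 estimated reads, Rspo2 had 3 and 13, and Rspo4 had 0 and 2, for K14/hyal1 and Control in that order.

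Most secreted WNT inhibitors bind WNT ligands or their co-receptors, and genes were placed in this role by family name alone. It was the role with the highest median log2 ratio, 0.68, from 3 members past the filter. That median is the value of Dkk3 itself. Sfrp1, a decoy that resembles a Frizzled receptor, had 22.9 CPM in K14/hyal1 (21.2 to 24.7) and 12.6 CPM in Control (11.8 to 13.6), a ratio of 1.81 (1.63 to 2.01). Dkk3, a divergent Dickkopf protein, had 31.2 CPM in K14/hyal1 (29.2 to 33.3) and 19.1 CPM in Control (18.0 to 20.2), a ratio of 1.64 (1.498 to 1.79). Sfrp2 had 2.77 CPM in K14/hyal1 and 2.45 CPM in Control, a ratio of 1.13 (0.845 to 1.48) that fell below 1 with libraries scaled to the median gene. The intervals of Sfrp1 and Dkk3 lay above the median ratio of all genes and that of Sfrp2 included it.

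Below the filter, Sfrp4 had 1.72 CPM in K14/hyal1 and 0.687 CPM in Control, a ratio of 2.51 (1.63 to 3.87), and Sfrp5 had 1.96 and 1.05 CPM in the same order, a ratio of 1.88 (1.29 to 2.72). Frzb, another decoy receptor, had a ratio of 1.28 (0.937 to 1.72), Dkk2 of 1.36 (0.820 to 2.21) and Wif1, which binds WNT ligands directly, of 1.54 (0.642 to 3.60). Of the 8 genes of this role, 4 had intervals above the median ratio of all genes, 1.18, and 4 had intervals that include it. No such counts were made over all genes. The level of the 8 genes summed to 64.4 CPM in K14/hyal1 and 38.8 CPM in Control, a ratio of 1.66. The same sums gave 1.23 for the WNT ligands, 1.22 for R-spondins, 1.21 for Frizzled receptors, 1.23 for BMP ligands and 1.27 for BMP antagonists.

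Frizzled receptors, the 7-pass membrane proteins that bind WNT ligands, had ratios from 1.06 to 1.55 among the 7 past the filter. Fzd5, the receptor known for WNT signals in the gut epithelium, had 83.5 CPM in K14/hyal1 (80.2 to 86.9) and 77.5 CPM in Control (75.3 to 79.8), a ratio of 1.08 (1.03 to 1.13), below the median of all genes and so below 1 when scaled to it. Fzd1 had 32.7 CPM in K14/hyal1 and 21.05 CPM in Control, a ratio of 1.55 (1.43 to 1.69). Fzd7, a receptor of intestinal stem cells, had 21.3 CPM in K14/hyal1 and 14.8 CPM in Control, a ratio of 1.44 (1.30 to 1.60). Fzd2, Fzd4, Fzd6 and Fzd8 had ratios between 1.06 and 1.32, and that of Fzd4, the lowest, was below 1 after scaling to the median gene. Fzd3 was below the filter with a ratio of 1.73 (1.09 to 2.74), and Fzd9 and Fzd10 had no more than 7 estimated reads in a library.

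**Figure D3:**
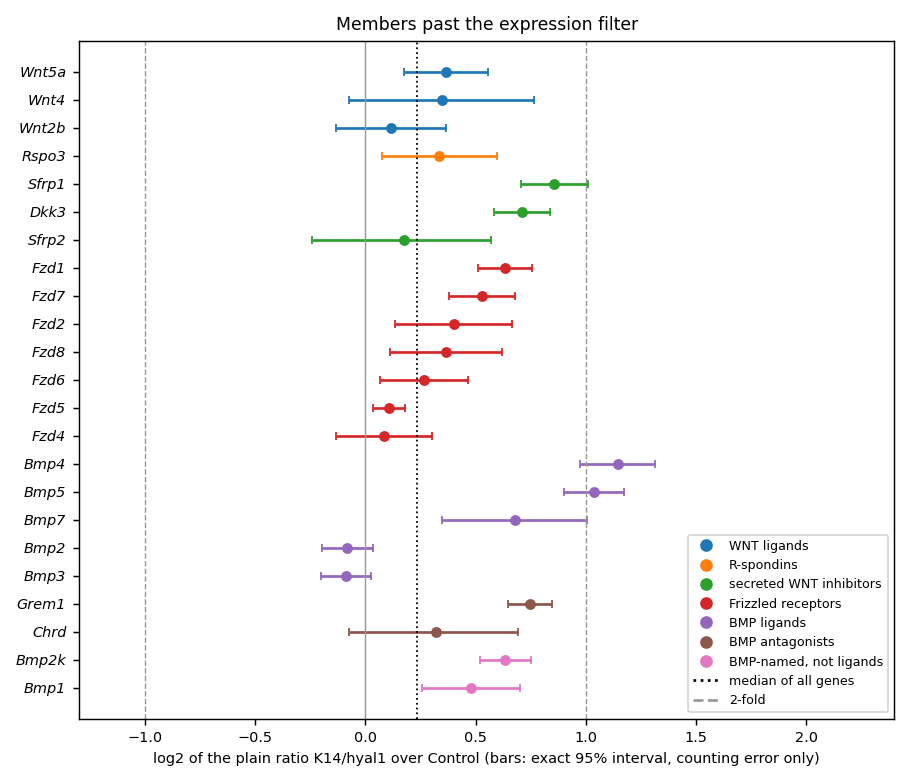
Log2 of the plain ratio of K14/hyal1 over Control for the named members past the expression filter, coloured by role, with exact 95% intervals for counting error from 1 library per group; the dotted line is the median of all genes and dashed lines mark 2-fold. Bmp4, Bmp5, Sfrp1, Dkk3, Fzd1, Fzd7 and Grem1 are among those whose intervals lie to the right of the median, and Bmp2, Bmp3 and Fzd5 lie to its left.

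Levels of different members can be compared per length, here as CPM per kb of the longest annotated transcript. Fzd5 was highest in both libraries, at 12.1 CPM per kb in K14/hyal1 and 11.2 CPM per kb in Control. Next in K14/hyal1 came Grem1 (11.8), Bmp4 (9.57), Dkk3 (9.29) and Bmp2 (8.63 CPM per kb). In Control, Bmp2 (9.13), Grem1 (7.02) and Dkk3 (5.68 CPM per kb) were also among the highest. Bmp4 was thus at rank 3 of the 56 members in K14/hyal1 and rank 8 in Control. The WNT ligands and Rspo3 were lower per length, with Rspo3 at 2.19 and 1.73, Wnt2b at 2.09 and 1.92 and Wnt5a at 1.81 and 1.41 CPM per kb, for K14/hyal1 and Control in that order.

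Other genes of the 2 pathways were described from lists of 109 distinct genes in the table, 87 of them past the filter. Of these, 4 were at least 2-fold higher in K14/hyal1 and 5 at least 2-fold lower, 4.60% and 5.75%, beside 3.75% and 1.54% of all genes. With libraries scaled to the median gene these counts were 2 higher and 6 lower, beside 2.28% and 2.69% of all genes, since Htra1 and Ereg fell short of 2-fold and Dvl3 reached it at -1.05; TMM gave the same counts. The median log2 ratio of the 87 genes was 0.23. Of the genes called higher, Gpc3 passed the filter through its K14/hyal1 level alone.

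Genes that respond to WNT signals lay on both sides of 0. Of 14 WNT target genes past the filter, 0 were 2-fold different, and their median log2 ratio was 0.25. Axin2, a feedback inhibitor and the usual readout of the pathway, had 13.2 CPM in K14/hyal1 and 15.7 CPM in Control, a ratio of 0.842 (0.745 to 0.948). Lgr5, the crypt stem cell receptor for R-spondins, had 3.14 CPM in K14/hyal1 and 2.45 CPM in Control, a ratio of 1.28 (0.973 to 1.67). The extremes were Tnfrsf19 at a log2 ratio of 0.94 and Sox9 at -0.55. WNT receptors and co-receptors had 0 of 12 at 2-fold and a median of 0.23, from Ptk7 at 0.75 to Lrp5 at -0.34.

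The 5 ligand processing genes past the filter had a median log2 ratio of 0.57, with 1 higher and 0 lower. Wls, which carries WNT ligands to the cell surface, had 70.8 CPM in K14/hyal1 and 47.3 CPM in Control, a ratio of 1.496 (1.41 to 1.58). The proteoglycan gene Gpc3 had 3.82 CPM in K14/hyal1 and 1.06 CPM in Control, a ratio of 3.60 (2.62 to 4.96), and Gpc4 was lowest at a log2 ratio of -0.63. The Control level of Gpc3 was below 2.31 CPM. This gene passed the filter through its K14/hyal1 level alone, which favours a call as higher.

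The intracellular WNT pathway held 4 of the 5 lower genes. Of 17 past the filter, 4 were at least 2-fold lower and 0 higher, with a median log2 ratio of -0.17. Tcf7l2, the main TCF factor of the gut epithelium, had 30.01 CPM in K14/hyal1 and 72.3 CPM in Control, 2.41-fold lower (2.24 to 2.59). Bcl9l, a co-activator that binds beta-catenin, had 5.34 CPM in K14/hyal1 and 17.3 CPM in Control, 3.24-fold lower (2.74 to 3.86). Its relative Bcl9 was 2.19-fold lower (1.88 to 2.58) and Tcf7l1, a TCF repressor, 2.18-fold lower (1.87 to 2.54). With the trend with GC content taken off, an alternative chosen after seeing the data, Bcl9 and Tcf7l1 were at log2 ratios of -0.94 and -0.84 and so short of 2-fold. With the length trend taken off, Bcl9 was also short of it, at -0.96. Dvl3, which encodes a Dishevelled protein, was at -0.84 as deposited and at -1.05 with either scaling to the median gene or TMM. Ctnnb1, which encodes beta-catenin, had a log2 ratio of 0.42, and Csnk1a1 was highest, also at 0.42.

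BMP receptors, transducers and targets lay on both sides of the median ratio of all genes, 1.18. Counting intervals were above it for 4 of 9 receptors and co-receptors, 2 of 7 transducers and 3 of 8 targets, and below it for 4, 3 and 2 of them in that order. These counts too have no all-gene counts beside them. Of the 9 receptors and co-receptors past the filter, 0 were 2-fold higher and 1 lower, Rgma, a BMP co-receptor, with 3.65 CPM in K14/hyal1 and 11.2 CPM in Control, 3.07-fold lower (2.502 to 3.81). Bmpr1a, a type I receptor, was the highest of them at a log2 ratio of 0.64. Signal transduction genes had 0 of 7 at 2-fold and a median of 0.23, from Smad5 at 0.60 to Smad4 at -0.29. BMP target genes had 0 of 8 at 2-fold and a median of 0.17. Id1, the usual readout of BMP signals, had 71.7 CPM in K14/hyal1 and 77.6 CPM in Control, a ratio of 0.924 (0.878 to 0.974). Bambi, a decoy receptor induced by BMP, was highest at a log2 ratio of 0.82, and Smad7 lowest at -0.50.

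Other secreted modulators of BMP had a median log2 ratio of 0.67 over 7 genes past the filter, with 2 higher and 0 lower. Fstl1 had 81.4 CPM in K14/hyal1 and 28.0 CPM in Control, a ratio of 2.91 (2.73 to 3.10). Htra1 had 27.0 CPM in K14/hyal1 and 12.9 CPM in Control, a ratio of 2.09 (1.89 to 2.31). Its log2 ratio of 1.01 was from 0.78 to 0.85 under the 3 other scalings and 0.98 with the length trend taken off, short of 2-fold in each. Chrdl1 was lowest at a log2 ratio of 0.17. Among other niche ligands, 1 of 11 was higher and 0 lower. That gene was Ereg, an EGF receptor ligand, with 8.07 CPM in K14/hyal1 and 3.25 CPM in Control, a ratio of 2.48 (2.04 to 3.01), and its log2 ratio of 1.09 was from 0.90 to 0.96 under the 3 other scalings, short of 2-fold. Egf was lowest at a log2 ratio of -0.38. Ihh, the epithelial Hedgehog ligand, had a ratio of 1.03 (0.939 to 1.13).

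**Figure D4:**
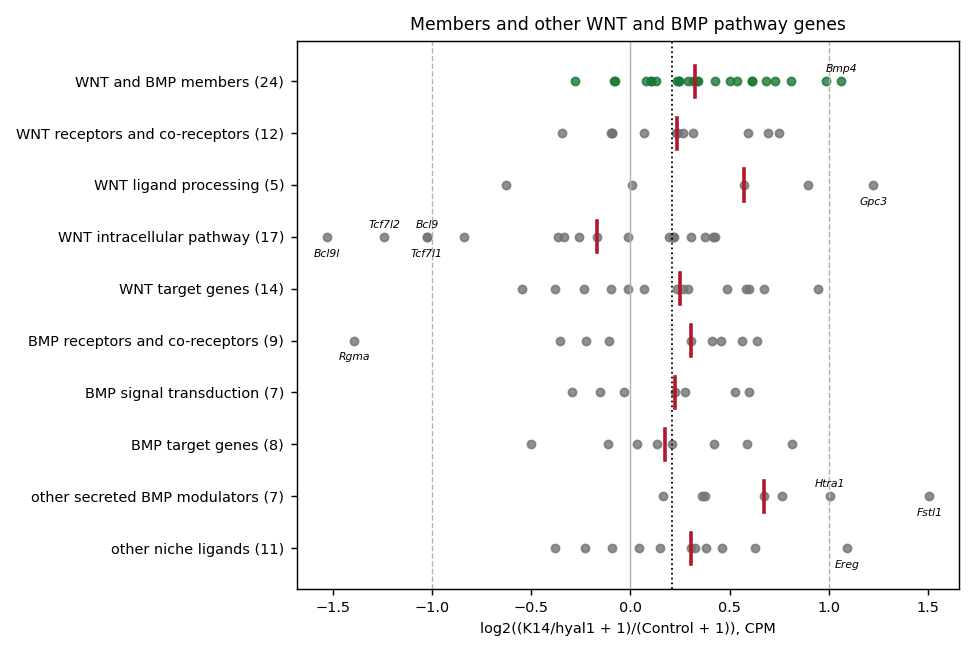
Log2((K14/hyal1 + 1)/(Control + 1)) of CPM for each gene past the filter, 1 point per gene, for the members (top) and 9 lists of other pathway genes, with the number of genes in brackets; red bars are medians, the dotted line is the median of all genes at 0.21 and dashed lines mark 2-fold. Genes at least 2-fold different are named: 4 of the intracellular WNT pathway and Rgma lie on the lower side.

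Fibroblasts make many of these signals, and their markers did not differ by a common factor. Of 8 fibroblast markers, 5 were at least 2-fold higher in K14/hyal1 and 0 lower, and they summed to 898 CPM in K14/hyal1 and 375 CPM in Control, a ratio of 2.39. Their log2 ratios ran from -0.53 (Col1a1) to 1.88 (Dcn). Of the 5 higher, Mfap5 was at 1.55 CPM in Control, below 2.31 CPM, and passed the filter through its K14/hyal1 level alone. Pdgfra, which marks gut fibroblasts and is highest in telocytes, had 84.0 CPM in K14/hyal1 and 31.4 CPM in Control, a ratio of 2.67 (2.52 to 2.84). Of the 4 telocyte markers past the filter, 1 was at least 2-fold higher, Pdgfra itself, and 0 were lower. Of the others past the filter, F3 had 25.7 and 16.2 CPM, a ratio of 1.59, for K14/hyal1 and Control in that order. In the same order, Gli1 had 3.27 and 2.73 CPM, a ratio of 1.20, and Sox6 had 8.89 and 9.78 CPM, a ratio of 0.909. Foxl1 was below the filter, at 2.27 CPM in K14/hyal1 and 1.13 CPM in Control, a ratio of 2.01 (1.42 to 2.86). The CD81+ trophocyte list had 2 of 4 higher and 0 lower, with Pi16 and Cd34 highest and Ackr4, which marks these Grem1-rich cells, at a log2 ratio of 0.40. Pi16, at 1.85 CPM in Control, passed the filter through its K14/hyal1 level alone. None of these markers was at 0 in either library.

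Whether a member was higher or lower relative to fibroblast and telocyte markers depended on the marker. Over the 11 such markers past the filter, Bmp4 divided by the marker had an interval below 1 for 5 markers, including 1 for 1 and above 1 for 5. The K14/hyal1 value of that quotient over its Control value was 0.827 (0.724 to 0.946) with Pdgfra and 0.592 (0.522 to 0.672) with Dcn, but 1.45 (1.28 to 1.65) with Col1a2 and 3.23 (2.80 to 3.73) with Col1a1. Bmp5 had the same counts, and its quotient ran from 0.445 with Mfap5 to 2.998 with Col1a1. For Grem1 and Sfrp1 the interval was below 1 for 5 markers and above 1 for 4, and for Dkk3 it was below 1 for 5 and above 1 for 3. For Wnt5a and Rspo3 it was below 1 for 8 markers and above 1 for 2, and for Wnt2b below 1 for 8 and above 1 for 1. The CD81+ trophocyte markers were not among the 11. Past the filter, their ratios were 6.07 for Pi16, 3.67 for Cd34, 1.39 for Cd81 and 1.36 for Ackr4, beside 1.68 for Grem1. The part of fibroblast content in the Bmp4, Bmp5, Grem1, Sfrp1 and Dkk3 values was not tested.

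Markers of other cell types were higher, lower or similar depending on the type. Smooth muscle markers had 0 of 8 at 2-fold and summed to 3618 CPM in K14/hyal1 and 3059 CPM in Control, a ratio of 1.18, equal to the median plain ratio of all genes. General epithelial markers had 0 of 8 at 2-fold and a summed ratio of 1.05. Colonocyte markers had 2 of 5 lower and 0 higher, with sums of 878 CPM in K14/hyal1 and 1278 CPM in Control, and goblet markers had 1 of 5 lower and 0 higher, with sums of 2760 and 4097 CPM in the same order. Lymphatic endothelial markers had 4 of 5 higher, with sums of 82.0 and 16.9 CPM, and macrophage markers had 5 of 6 higher, with sums of 121 and 34.7 CPM. Blood endothelial markers had 1 of 5 past the filter higher, with sums of 65.8 and 36.8 CPM. Few genes of the remaining lists passed the filter: 0 of 2 neuron, 0 of 1 glia and 0 of 1 mesothelium genes were at 2-fold, and 0 of 5 skin epidermis genes passed it, so they could not be called. Of the mesothelium list, Msln, Upk3b and Wt1 had 1, 0 and 1 estimated reads in K14/hyal1 and 5, 1 and 4 in Control, too few for a comparison. The secretory list of the crypt base had 1 of 3 higher, Lyz1. Among the genes counted as higher, Flt4 (2.13), Adgre1 (1.31), Tek (2.21) and Lyz1 (1.69 CPM) were below 2.31 CPM in Control. They passed the filter through their K14/hyal1 levels alone, which favours such a call. The part of these cell types in the members' values was not tested.

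**Figure D5:**
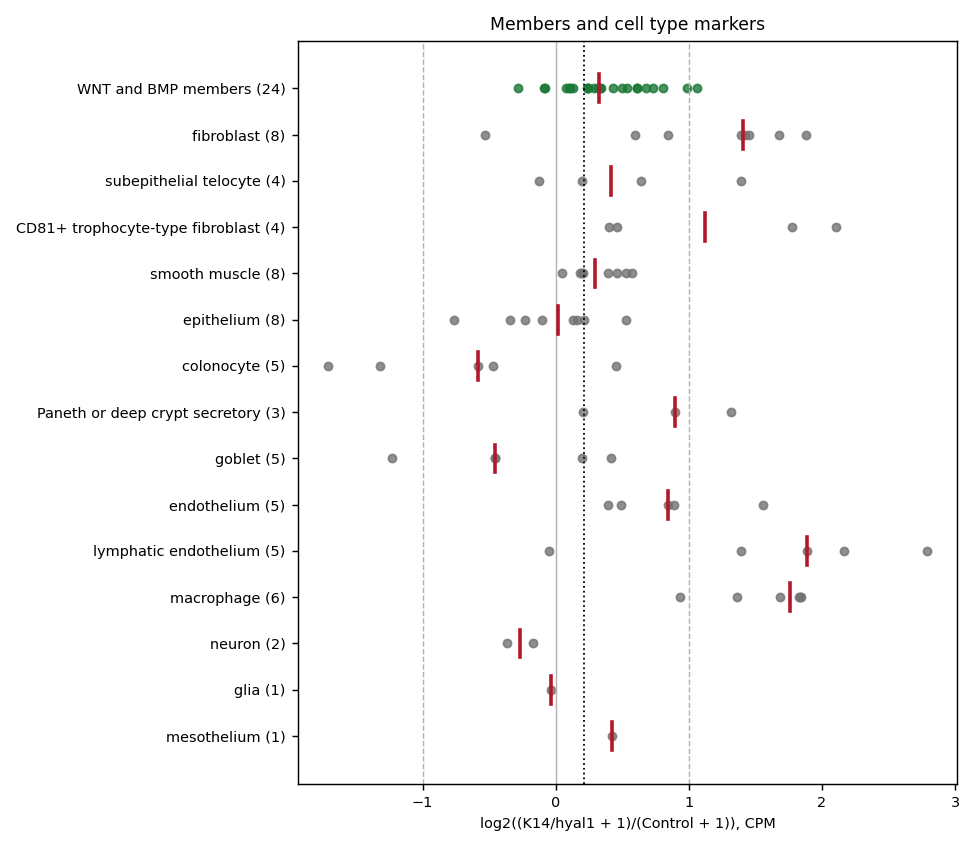
Log2((K14/hyal1 + 1)/(Control + 1)) of CPM for each gene past the filter, 1 point per gene, for the members (top) and lists of cell type markers, with the number of genes in brackets; red bars are medians, the dotted line is the median of all genes at 0.21 and dashed lines mark 2-fold. Fibroblast, lymphatic and macrophage markers lie mostly beyond 2-fold, while 1 of the 24 members does; the salivary-type gland list, far to the left, is not drawn.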

How the data were processed

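RNA-seq was done on 1 K14/hyal1 and 1 Control library of mouse colon lamina propria, with a TruSeq stranded kit and a HiSeq instrument, per the labels' protocols. The submitters' processing notes name Partek and mm10, and no source used here gives the aligner, counting rule or versions.

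The authors deposited normalized counts, 72178 transcript rows for 27874 symbols, read here as CPM: low values are multiples of 0.0345 in K14/hyal1 and 0.0164 in Control, which is 1 read of 29.0 and 61.1 times 1e+06. Of gene values up to 300 reads, 82.9% in K14/hyal1 and 81.5% in Control lay within 0.1 of a whole read, which makes read numbers estimates, and count models were left out. Rows were summed per symbol after subtracting an offset of 0.0001 from each. The authors' gene table, used as an alternative, gives least-squares mean CPM and their ratio, per the file headers; 30 members are in it. A further colon table and a skin sheet were not used. One member is counted in the totals and its own values are not reported here.

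A single library per group allowed no test. Calls used log2((K14/hyal1 + 1)/(Control + 1)) at 2-fold, for genes whose mean CPM was at least 2.31, which is the median over 27125 symbols with a value above 0. Level intervals are exact Poisson, ratio intervals Clopper-Pearson and intervals of pair ratios conditional exact, all 95%, from estimated reads. The reads carry no molecular identifiers and are not independent molecules, so intervals and the floor of 3 reads cover counting error only. Lengths, overlaps and coordinates come from GENCODE M21 (mm10) and were matched for all 56 members; the table's rows carry no transcript names.

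The naming rule gave full values to members past the filter at 2-fold, among the 3 highest of their role or at its extremes, and, in pathway lists, to at most 4 genes at 2-fold or at the extremes. Values of members below the filter, and of Axin2, Lgr5, Id1, Wls, Ihh, Ctnnb1 and Dvl3, and the pairs with cell markers, were added after values were seen. The members and lists were chosen with earlier results of these data known. Alternatives were other pseudocounts, filters, thresholds and scalings, and the authors' table. Steps were tested on simulated data. The software was matplotlib 3.10.9, scipy 1.17.1, pandas 2.3.3 and numpy 2.4.6, run in Python 3.11.15.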

Additional observations from a re-analysis of the deposited data

How the results depend on the processing

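The single 2-fold call among the members depended on the scale. The number of members at least 2-fold higher was 1 as reported, 2 with a pseudocount of 0.1 or with the transcript length trend taken off (an alternative chosen after seeing the data), and 0 with a pseudocount of 10, at 3-fold, and with libraries scaled by TMM, to the median gene or to totals without the 20 most abundant genes. It was 7 at 1.5-fold. It stayed at 1 with no filter or 4 times the filter, in the authors' gene table and with the GC trend taken off (also chosen after seeing the data). The number at least 2-fold lower was 0 under each alternative. The log2 ratio of Bmp4 ranged from 0.65 to 1.14 and that of Bmp5 from 0.70 to 1.03 over 10 alternatives. The median log2 ratio of members was 0.33, and 0.11 both by TMM and with scaling to the median gene. These scalings lower every K14/hyal1 to Control ratio, by 0.23 on the log2 scale, and the share of higher genes among all 2-fold calls was 70.9% as deposited, 45.8% and 46.0% with them and 53.5% without the 20 most abundant genes. Under the 3 scalings, 17 of the 24 members past the filter stayed above 0, 3, Bmp2 and Bmp3 among them, stayed below it and 4 (Fzd4, Fzd5, Sfrp2 and Wnt2b) changed sign. As deposited, 87.5% of these members were above 0, beside 69.6% of all genes past the filter. The share of all genes that stayed above 0 under each scaling was not counted. The pathway lists had 9 genes at 2-fold in either direction, 2 with a pseudocount of 10, 25 at 1.5-fold and 0 at 3-fold. No paired analysis was possible because each group has 1 library. Depth limits the low members: 9 of the 56 were under 3 estimated reads in at least 1 library.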
